A study of Danio rerio with 12 samples.

Results

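The genes of the mitochondrial respiratory chain and of ATP synthase were examined in RNA sequencing data of elmo2-/- and elmo2+/+ zebrafish larvae. A gene was included when its Ensembl identifier mapped to a symbol that begins with nduf, uqcr, atp5, cox4 to cox8, mt-nd, mt-co, mt-cyb or mt-atp, or that is sdha, sdhb, sdhc or sdhd. Of 32520 gene rows, 117 met this rule, 104 of them encoded in the nucleus and 13 in the mitochondrial genome. The nuclear genes were 90 subunit genes (38 of complex I, 5 of complex II, 8 of complex III, 21 of complex IV and 18 of complex V), 8 complex I assembly factors of the NDUFAF family, 4 genes of the NDUFA4 family and 2 inhibitors of the ATPase. No sequence of these genes is printed because none was in the files used here.

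Both genotypes came from the reporter line Tg(fli1:EGFP), in which endothelial cells carry EGFP. The elmo2-/- line has a CRISPR/Cas9 deletion that shifts the reading frame of elmo2 and creates an early stop codon. Every sample was 1 pool of 30 whole larvae, taken at 120 hours post fertilization, with 6 pools of elmo2-/- and 6 pools of elmo2+/+. The study used littermates as controls and kept larvae in egg water with or without PTU, an agent against pigmentation, and the sources do not say which was used for these pools or whether the pools came from separate clutches. The p-values therefore measure the spread between these pools only. Because whole larvae were used, fewer cells of a type and less RNA per cell cannot be told apart.

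The respiratory chain passes electrons from NADH and succinate to oxygen and pumps protons across the inner mitochondrial membrane. Complex I (NADH dehydrogenase), complex III (the cytochrome bc1 complex) and complex IV (cytochrome c oxidase) are the proton pumps, complex II (succinate dehydrogenase) feeds electrons from the citric acid cycle, and complex V (ATP synthase) uses the proton gradient to make ATP. The mitochondrial genome encodes the membrane core of complexes I, III, IV and V but no subunit of complex II, and all other subunits are imported after translation from nuclear messages. The chain is especially dense in muscle, heart and brain. The roles given below are those known from the mammalian enzymes.

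Total estimated counts lay between 20116203 and 20939679 per sample. CPM values, used for comparisons between genotypes, are estimated counts relative to the sample's total after TMM scaling. TPM values, used for comparisons between genes, are abundances per transcript length with an equal total in all samples. The TMM factors, which set the typical gene to the same level in all samples, ranged from 0.950 to 1.07 and were highest in replicate 1 of both genotypes. The targeted gene elmo2 had 31.4 to 51.6 CPM in elmo2-/- and 56.3 to 92.4 CPM in elmo2+/+, so that the genotypes did not overlap, with a log2 fold change of -0.93 (standard error 0.15) and an adjusted p of 0.642 from edgeR. The library numbers in the labels are 1 to 6 for elmo2+/+ and 13 to 16, 7 and 8 for elmo2-/- replicates 1 to 6, so an effect of the library number cannot be told apart from one of the genotype.

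The messages of the mitochondrial genome were by far the most abundant of the chain. The 13 mitochondrially encoded genes had a median of 5460 TPM (means over 12 samples, from 1431 to 18290), and the 90 nuclear subunit genes had a median of 162 TPM (from 0.083 to 1634), which is a 33.7-fold difference of the medians. In mean TPM, 12 of the 13 mitochondrial genes were above every nuclear subunit gene, and 7 of the 13 were among the 20 most abundant of all gene rows. The exception was MT-ND5, with 1431 ± 248 TPM (SD, n = 12).

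**Figure D1:**
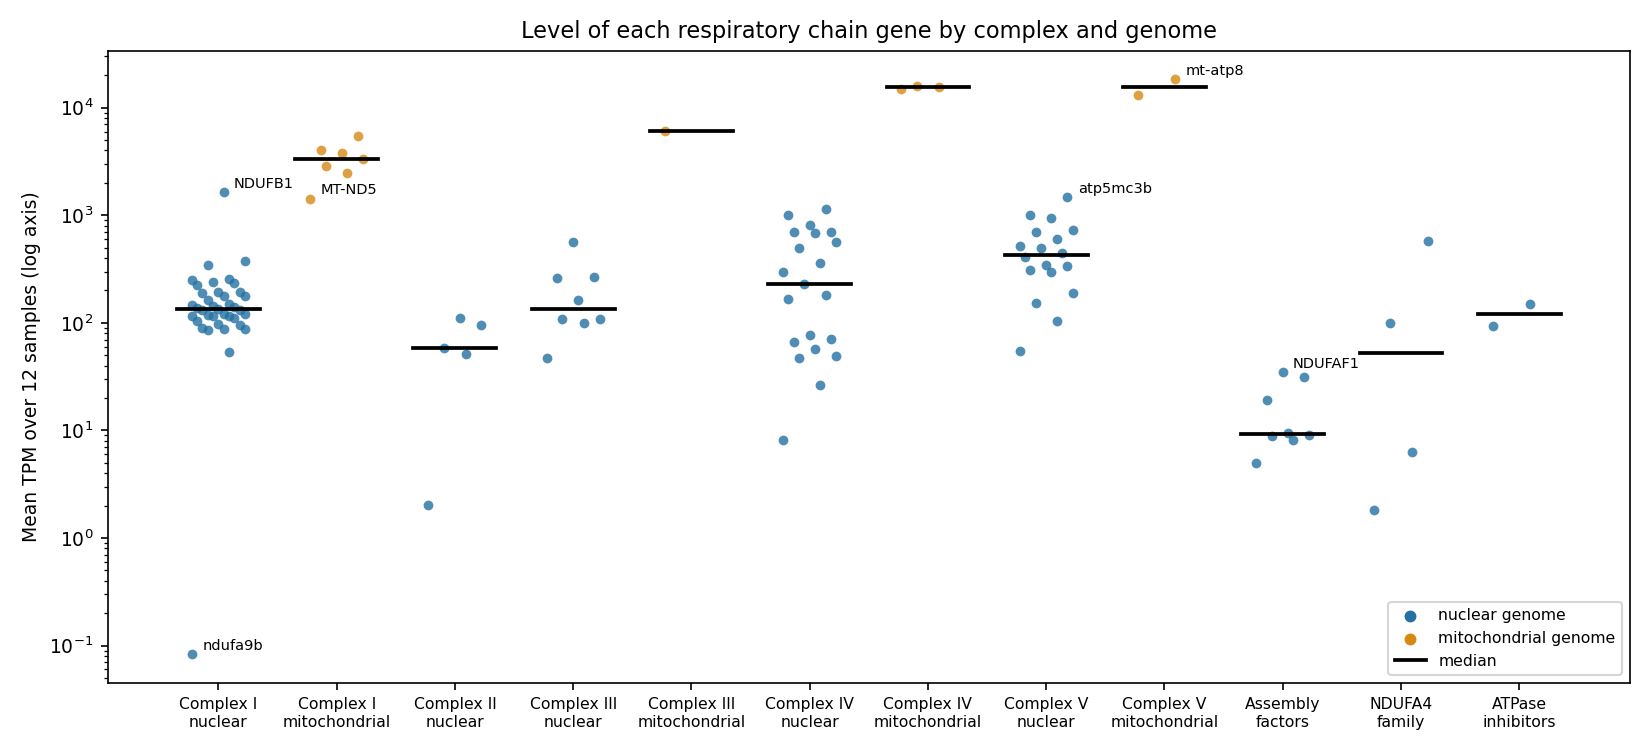
Mean TPM over the 12 samples (log axis) of each respiratory chain gene, by complex and genome, with the median of each group as a bar. The mitochondrially encoded genes lie between 1431 and 18290 TPM, the nuclear subunits between 0.083 and 1634, and the complex I assembly factors between 4.99 and 35.2.

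Within the mitochondrial genome the complex I genes had the lowest levels. The highest mean TPM was that of mt-atp8, a small membrane subunit of complex V, with 18290 ± 2611 TPM (SD, n = 12). This rank depended on the length scaling, as its mean was only 409 CPM. The catalytic core genes of complex IV came next, MT-CO2 with 16053 ± 1228 TPM, MT-CO3 with 15733 ± 1139 TPM and MT-CO1 with 14930 ± 1229 TPM. MT-ATP6, the proton channel subunit of complex V, had 13018 ± 900 TPM and MT-CYB, the cytochrome b of complex III, 6016 ± 445 TPM. The 7 genes of complex I, which form its proton-pumping arm, were all below MT-CYB in mean TPM and ranged from MT-ND3 with 5460 ± 355 TPM down to MT-ND5.

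Neighbours in this order were not always separated. MT-CO2 was above MT-CO3 and MT-ND1 above mt-nd4l in 8 of 12 samples. In 9 of 12, mt-atp8 was above MT-CO2 and mt-nd4l above MT-ND2. MT-CO3 was above MT-CO1 and MT-ND4 above MT-ND6 in 10 of 12, and MT-CO1 above MT-ATP6 and MT-CYB above MT-ND3 in 11 of 12. The order of these neighbours thus changed between samples, and their differences were not tested. MT-ATP6 was above MT-CYB, MT-ND3 above MT-ND1, MT-ND2 above MT-ND4 and MT-ND6 above MT-ND5 in 12 of 12 samples. For mt-atp8 each TPM rests on the fewest reads: 1 TPM corresponded to 0.46 estimated counts for mt-atp8 and to 23.4 for MT-CO1, and in CPM mt-atp8 was the second lowest of the 13 genes with 409, above mt-nd4l with 323. The reading frames of mt-atp8 and MT-ATP6 overlap, as do those of mt-nd4l and MT-ND4, and MT-ND6 lies on the other strand of the mitochondrial genome from its neighbours. The sources used here do not say whether counting used strand, so reads of these overlapping or opposed genes cannot be told apart with certainty.

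Nuclear subunit genes differed in level between complexes. The median was 136 TPM for complex I, 58.5 for complex II, 136 for complex III, 230 for complex IV and 426 for complex V. At least 100 TPM was reached by 67 of the 90 genes and at least 1000 TPM by 5. The ratio of the median mitochondrial to the median nuclear level was 24.4 in complex I, 44.4 in complex III, 68.3 in complex IV and 36.8 in complex V. These are comparisons of RNA levels per length, over genes that share the same 12 samples.

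Of the nuclear genes, NDUFB1, an accessory subunit of complex I, had the highest mean with 1634 ± 140 TPM (SD, n = 12), but only 0.53 estimated counts stood behind each of these TPM. It was followed by atp5mc3b, which encodes subunit c of the rotor ring of ATP synthase, with 1465 ± 107 TPM, by cox6c with 1145 ± 108 TPM, by ATP5F1B, the catalytic beta subunit, with 1016 ± 97.8 TPM, and by cox6a1 (ENSDARG00000022438) with 1011 ± 84.3 TPM. In complex II, SDHC, a membrane anchor, had 111 ± 8.71 TPM, SDHA, the flavoprotein, 95.5 ± 9.69 TPM, and SDHB, the iron-sulfur subunit, 58.5 ± 4.14 TPM. Of the rows named SDHD, the other membrane anchor, ENSDARG00000030139 had 50.9 ± 5.41 TPM and ENSDARG00000055712 had 2.05 ± 0.690 TPM. The complex I assembly factors, which act during assembly and are absent from the finished complex, had a median of 9.32 TPM, above only 3 of the 90 subunit genes.

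Many subunits of complex IV are encoded by several paralogs in the zebrafish, and 1 copy usually supplied most of the TPM of its subunit. COX4I1 held 89.5% of the summed TPM of the COX4 genes (87.0 to 91.4% in single samples), COX4I2, the copy linked to low oxygen in mammals, 9.18%, and cox4i1l 1.31%. For the COX5B rows the share of ENSDARG00000015978 was 89.3%, for COX6A the share of cox6a1 (ENSDARG00000022438) was 93.8%, for COX8 that of cox8a was 89.9%, and for COX6B that of cox6b2 was 79.6%. Levels were more even in COX5A, where cox5aa held 62.6% and COX5A 37.4%, and in COX7A, where the 2 rows named COX7A2 held 56.6% (ENSDARG00000053217) and 35.6% (ENSDARG00000110700) and cox7a1, the form of heart and muscle in mammals, 7.74%. Outside complex IV, NDUFA4 held 84.5% of its family, atp5mc3b 69.8% of the subunit c genes, atp5meb 86.0% of the subunit e genes, NDUFAB1 57.2% of the acyl carrier protein genes and uqcrc2a 52.5% of the UQCRC2 genes. Reads of near-identical copies can be divided between rows by the estimation of counts, so these shares are uncertain where copies are alike. The rows ndufa9b, with at most 2.06 estimated counts in any sample, and ndufa4l2b, with at most 12.8, fell below the filter on low counts, which left 115 genes for the comparison of genotypes.

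The comparison of elmo2-/- with elmo2+/+ asked whether loss of Elmo2 altered these messages. Of the 115 genes tested, 0 passed the threshold of an adjusted p under 0.05 (quasi-likelihood test of edgeR, p adjusted by Benjamini-Hochberg over 22259 genes), and 0% of all genes did. The smallest adjusted p among the 115 genes was 0.9997. The unadjusted p was under 0.05 for 2 of the 115, both with higher values in elmo2-/-, where 4.68% of all genes tested (2.55% with higher and 2.13% with lower values in elmo2-/-) passed the same threshold. That is 1.74% of the respiratory chain genes, which is not above the share of all genes. The count depended on which samples were used. Without elmo2-/- replicate 1, the unadjusted p was under 0.05 for 17 of the 115 (14.8%, 15 with higher and 2 with lower values in elmo2-/-). In that fit 7.25% of all genes passed, and 0 passed after adjustment. Without elmo2+/+ replicate 3 the count was 7 (6.09%, against 4.44% of all genes). With only the 2 elmo2-/- pools of library numbers 7 and 8 (replicates 5 and 6) it was 9 (7.83%, against 6.53%). DESeq2 also called 0 genes of the chain after adjustment, and 3 of them had an unadjusted p under 0.05, where 4.36% of all genes did.

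The differences were small and were bounded. The log2 fold changes of the 115 genes lay between -0.21 and 0.21, with a median standard error of 0.090. For 112 of them, including all 13 mitochondrial genes, the 95% interval excluded a 1.5-fold difference in either direction. The other 3, SDHD (ENSDARG00000055712), cox4i1l and atp5mea, had wider intervals, and their mean levels were 2.05, 8.23 and 55.2 TPM. The spread between pools of 1 genotype was also smaller for these genes than for genes at large, with a median SD of 0.158 against 0.205 on the log2 CPM scale, over all genes that are mostly less abundant (median 6.63 TPM).

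By direction, 77 of the 115 genes had a log2 fold change above 0 (67.0%), against 49.8% of all genes tested, and their median was 0.030 against -0.00061. The values over all genes follow largely from the TMM scaling and are thus no independent background. Nuclear and mitochondrial genes leaned in different directions. Of the nuclear subunit genes 63 of 89 were above 0, with a median of 0.031, and of the mitochondrial genes 10 of 13 were below 0, with a median of -0.040. Genes of a sample share its composition, so these counts describe the 12 samples and were not tested. They also depended on the scaling: on library size only, 66 of the 115 genes were above 0 (57.4%, against 43.6% of all genes), and on log2(TPM + 1) 56 were (48.7%, against 35.8%), with medians of 0.016 and 0.0026 for the nuclear subunits and of -0.061 and -0.081 for the mitochondrial genes.

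**Figure D2:**
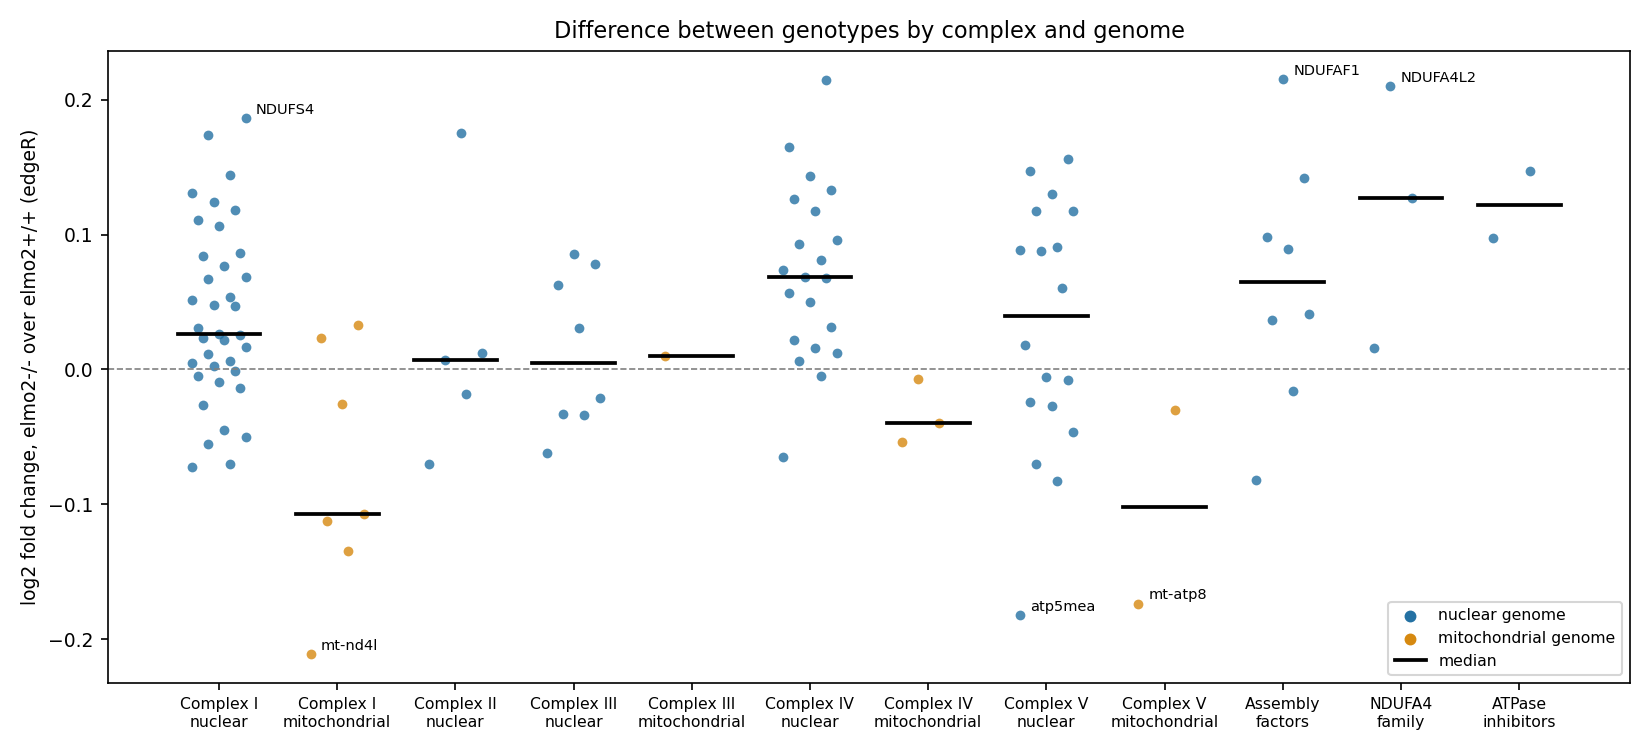
The log2 fold change (elmo2-/- over elmo2+/+, edgeR) of each of the 115 genes tested, by complex and genome, with the median of each group as a bar and 0 as a dashed line. All values lie between -0.21 and 0.21, and no gene passed an adjusted p under 0.05.

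NDUFAF1, an assembly factor of complex I, was the gene of the chain with the smallest p. It had 29.6 CPM in the lowest, 31.0 in the median and 33.2 in the highest elmo2-/- sample, and 24.6, 26.8 and 28.6 CPM in elmo2+/+. Each elmo2-/- sample was thus above each elmo2+/+ sample. Such a separation was seen for 1 of the 115 genes and for 0.198% of all genes tested. The elmo2-/- mean of 31.2 ± 1.65 CPM (SD, n = 6) compared with 26.9 ± 1.56 CPM for the 6 elmo2+/+ samples, a log2 fold change of 0.21 (standard error 0.059, 95% interval 0.089 to 0.34). The adjusted p from edgeR was 0.9997. In TPM the genotypes overlapped, with 33.1 to 41.5 TPM in elmo2-/- and 29.9 to 36.4 TPM in elmo2+/+.

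NDUFS4, an accessory subunit of complex I near its NADH-oxidizing end, was the other gene with an unadjusted p under 0.05. Its values were 38.9, 44.9 and 47.6 CPM in the lowest, median and highest elmo2-/- sample and 35.1, 37.9 and 42.6 CPM in elmo2+/+. The upper elmo2+/+ samples overlapped the lower elmo2-/- samples. The log2 fold change was 0.19 (standard error 0.069, 95% interval 0.038 to 0.33), with an adjusted p of 0.9997 from edgeR.

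**Figure D3:**
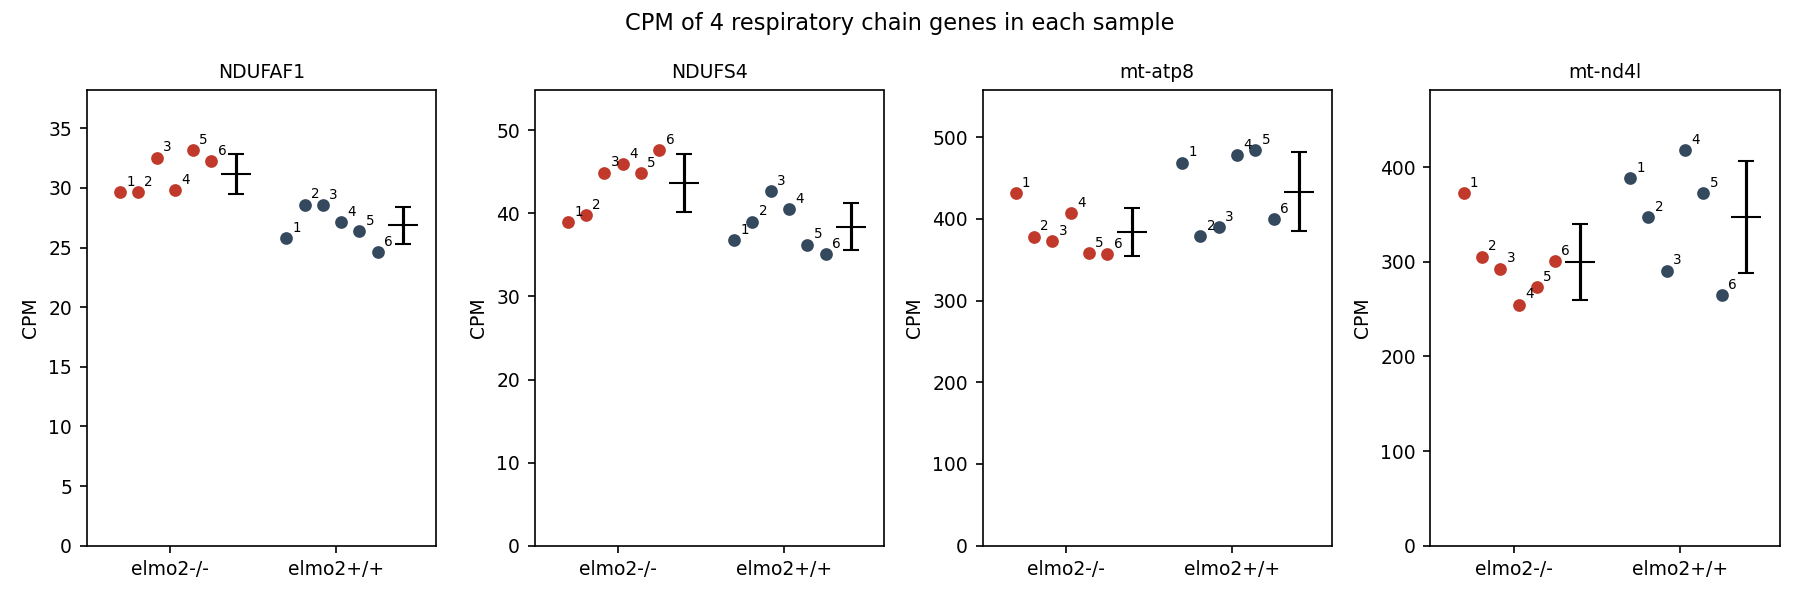
CPM of NDUFAF1, NDUFS4, mt-atp8 and mt-nd4l in each sample (points numbered by replicate, axis from 0), with the mean and SD of each genotype as a bar. NDUFAF1 lies between 29.6 and 33.2 CPM in elmo2-/- and between 24.6 and 28.6 CPM in elmo2+/+, and the genotypes of the other genes overlap.

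Among the mitochondrially encoded genes the lowest log2 fold changes belonged to mt-nd4l and mt-atp8. For mt-nd4l, a small subunit of the membrane arm of complex I, the lowest, median and highest values were 255, 297 and 372 CPM in elmo2-/- and 265, 360 and 418 CPM in elmo2+/+. The log2 fold change was -0.21 (standard error 0.12, 95% interval -0.46 to 0.042). For mt-atp8 the values were 357, 375 and 432 CPM in elmo2-/- and 379, 434 and 484 CPM in elmo2+/+. The log2 fold change was -0.17 (standard error 0.082, 95% interval -0.35 to 0.0021). In both genes the genotypes overlapped, and neither passed the unadjusted threshold. These were the 2 mitochondrial genes with the lowest mean CPM. MT-ND4 and MT-ATP6, whose reading frames overlap those of mt-nd4l and mt-atp8, were at -0.025 and -0.030. Reads of such overlapping genes cannot be told apart with certainty.

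The remaining complex I genes of the mitochondrial genome had log2 fold changes of -0.13 (MT-ND5), -0.11 (MT-ND2), -0.11 (MT-ND1), -0.025 (MT-ND4), 0.023 (MT-ND6) and 0.033 (MT-ND3). MT-CYB was at 0.010. The core genes of complex IV were close together at -0.054 (MT-CO1), -0.040 (MT-CO3) and -0.0070 (MT-CO2), and MT-ATP6 was at -0.030. For MT-CO1, with the most reads of these genes, the lowest, median and highest values were 15408, 16018 and 19847 CPM in elmo2-/- and 16162, 17292 and 18895 CPM in elmo2+/+. Its elmo2-/- range enclosed the elmo2+/+ range.

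The median of the mitochondrial genes rested on few pools. It was -0.040 over all samples, -0.099 without elmo2-/- replicate 6, with 13 of 13 genes below 0, and -0.0017 without elmo2+/+ replicate 5, with 7 of 13 below 0. With the elmo2-/- samples of library numbers 13 to 16 only it was -0.11. With only the 2 elmo2-/- pools of library numbers 7 and 8 (replicates 5 and 6) it was 0.055, with 5 of 13 genes below 0. The medians without elmo2-/- replicate 1 and replicate 2 were -0.013 and -0.020.

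Of the 37 nuclear genes of complex I tested, 27 had a log2 fold change above 0, with a median of 0.026 and a range from -0.073 to 0.19. Next to NDUFS4, the accessory subunit genes ndufa5 and NDUFS6 had the smallest p, with log2 fold changes of 0.17 (standard error 0.086) and 0.12 (standard error 0.070). The catalytic core genes had values on either side of 0, among them NDUFS1 at -0.073, NDUFS3 at -0.050, NDUFV1 at -0.026, NDUFV2 at 0.077, NDUFS7 at 0.068 and NDUFS8 at 0.0064. For the abundant accessory genes NDUFB1 and NDUFB8 the log2 fold changes were 0.12 (standard error 0.11) and 0.086 (standard error 0.085). Of the 8 assembly factors 6 were above 0, with a median of 0.065, and after NDUFAF1 the smallest p belonged to NDUFAF5 (0.14, standard error 0.090) and NDUFAF6 (0.090, standard error 0.083).

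Complex II, the only complex without a mitochondrial gene, had a median log2 fold change of 0.0067 over its 5 rows. SDHA had 151, 168 and 180 CPM in the lowest, median and highest elmo2-/- sample and 142, 171 and 224 CPM in elmo2+/+. SDHB had 141, 156 and 164 CPM in elmo2-/- and 137, 143 and 187 CPM in elmo2+/+. In both genes the elmo2+/+ range enclosed the elmo2-/- range. The log2 fold changes were -0.070 (SDHA), 0.0067 (SDHB), 0.012 (SDHC), -0.019 (SDHD, ENSDARG00000030139) and 0.18 (SDHD, ENSDARG00000055712, standard error 0.29).

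Complex III had a median of 0.0047 over 8 genes, 4 of them above 0, with a range from -0.062 to 0.086. UQCRQ, its most abundant nuclear gene with 561 ± 52.0 TPM (SD, n = 12), was at -0.021, UQCRB at 0.086, UQCRH, the hinge protein, at 0.078 and UQCRFS1, the Rieske iron-sulfur protein, at -0.062.

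Of the complexes, IV had the highest share of nuclear genes in the same direction. Of its 21 nuclear genes 19 had a log2 fold change above 0, with a median of 0.068 and a range from -0.065 to 0.21, and 0 passed the unadjusted threshold. On log2(TPM + 1) 14 of the 21 were above 0, and without elmo2-/- replicate 4 or elmo2+/+ replicate 1 also 14. The genes with the smallest p were COX7A2 (ENSDARG00000110700) at 0.21 (standard error 0.12), cox6b2 at 0.12 (standard error 0.073) and cox6b1 at 0.17 (standard error 0.11). COX7A2 (ENSDARG00000110700) had 13.03, 14.2 and 16.03 CPM in the lowest, median and highest elmo2-/- sample and 9.05, 13.1 and 14.7 CPM in elmo2+/+, with overlap. It held 36.9% ± 4.7 of the COX7A TPM in elmo2-/- and 34.4% ± 5.5 in elmo2+/+ (SD). The other row named COX7A2, ENSDARG00000053217, held 55.8% ± 4.0 and 57.4% ± 4.5. How far reads were divided between these rows was not tested. The 2 most abundant genes of the complex, cox6c and cox6a1 (ENSDARG00000022438), were the 2 below 0, at -0.0048 and -0.065. COX7A2L, which the rule placed here, is known as a factor of supercomplex assembly and was at 0.031. The NDUFA4 family, of which NDUFA4 itself is a subunit of complex IV although it was first assigned to complex I, was kept apart and had log2 fold changes of 0.016 (NDUFA4), 0.13 (ndufa4b) and 0.21 (NDUFA4L2, standard error 0.10).

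In complex V 10 of 18 nuclear genes had a log2 fold change above 0, with a median of 0.039 and a range from -0.18 to 0.16. The genes of the catalytic head lay near 0, ATP5F1A at -0.024 and ATP5F1B at -0.0079. ATP5F1B had 1326, 1438 and 1506 CPM in the lowest, median and highest elmo2-/- sample and 1250, 1376 and 1815 CPM in elmo2+/+. The genes with the smallest p were atp5meb, for subunit e at the dimer interface, at 0.16 (standard error 0.087), atp5mf, for subunit f, at 0.13 (standard error 0.080) and atp5f1e, for the epsilon subunit, at 0.15 (standard error 0.11). The less abundant subunit e gene, atp5mea, went the other way in its share of the subunit e TPM. It held 12.5% ± 4.0 in elmo2-/- and 15.4% ± 3.1 in elmo2+/+ (SD). The inhibitors of ATP hydrolysis, atp5if1a and atp5if1b, were at 0.097 (standard error 0.094) and 0.15 (standard error 0.084).

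Summed over genes, the mitochondrial messages took 9.84, 10.3 and 11.03% of all TPM in the lowest, median and highest elmo2-/- sample and 10.3, 10.9 and 12.1% in elmo2+/+. The means were 10.4% ± 0.52 (SD, n = 6) and 11.1% ± 0.71 (SD, n = 6), and 4 of the elmo2-/- samples were below every elmo2+/+ sample. The difference of the means, -0.716 points, was larger than the SD of either genotype, and the genotypes overlapped. These SDs describe single pools, so setting a difference of means beside them is not a test. Nuclear subunits took 2.51, 2.61 and 2.73% in elmo2-/- and 2.41, 2.54 and 2.82% in elmo2+/+, with means of 2.61% ± 0.076 and 2.60% ± 0.17 (SD, n = 6 each). The elmo2+/+ range enclosed the elmo2-/- range. The elmo2-/- samples had 3.98 ± 0.28 times as much mitochondrial as nuclear subunit TPM and the elmo2+/+ samples 4.30 ± 0.48 times (SD over 6 samples). The difference of -0.319 was smaller than the SD in elmo2+/+ and larger than that in elmo2-/-, and the genotypes overlapped.

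By complex, the mitochondrial genes of complex I took 2.26% ± 0.16 of TPM in elmo2-/- and 2.42% ± 0.18 in elmo2+/+, and those of complex IV 4.55% ± 0.36 and 4.79% ± 0.27. For complex V the mitochondrial share was 2.98% ± 0.29 and 3.28% ± 0.30, and for complex III 0.595% ± 0.046 and 0.609% ± 0.046 (SD, n = 6 each). More of the complex V share came from mt-atp8 (18290 TPM) than from MT-ATP6 (13018 TPM), although their means were 409 and 5254 CPM. The complex V share thus depended on the length scaling of mt-atp8, as did part of the total mitochondrial share. In complexes III and IV the difference of the means was smaller than either SD. In complexes I and V the differences, -0.162 and -0.296 points, were larger than the SD in elmo2-/- and smaller than that in elmo2+/+. As a percentage of estimated counts, the mitochondrial genes took 5.20% ± 0.33 in elmo2-/- and 5.44% ± 0.31 in elmo2+/+, a difference smaller than either SD. Here too the SDs describe single pools, so none of these comparisons is a test.

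**Figure D4:**
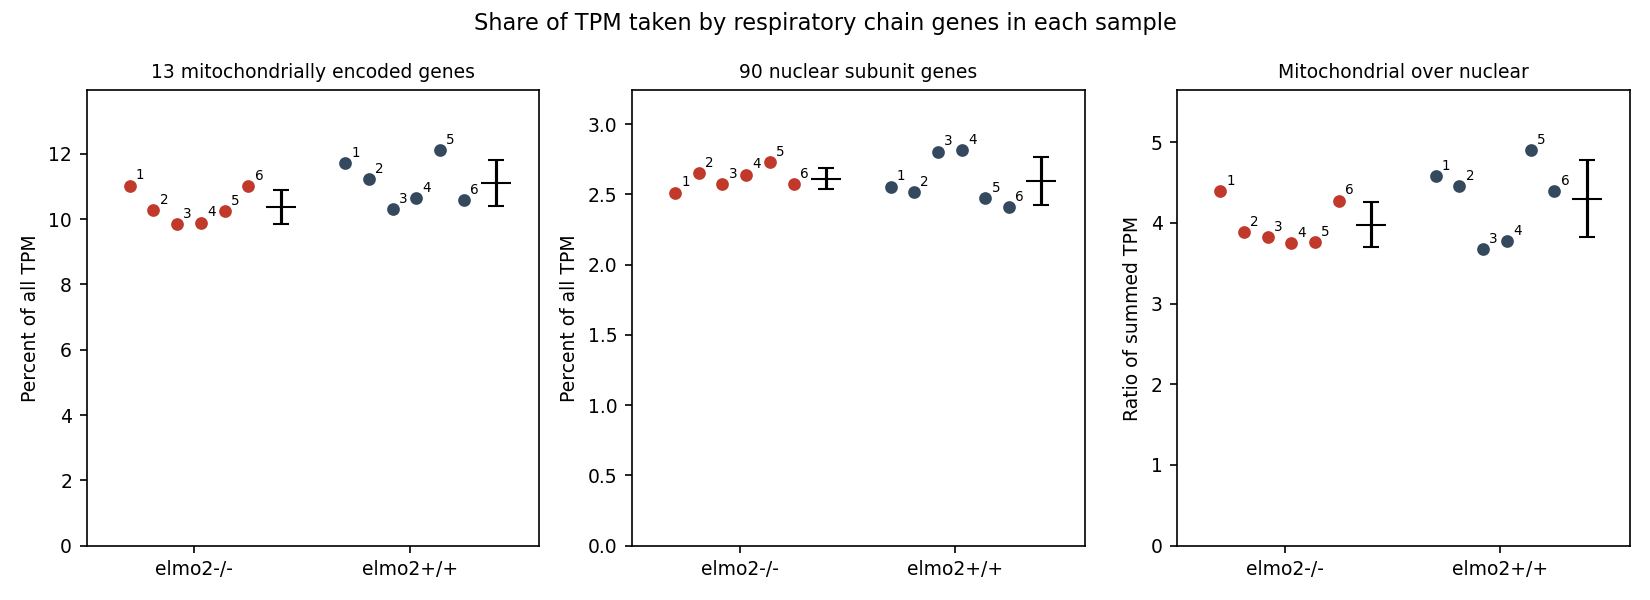
Percent of all TPM taken by the 13 mitochondrially encoded genes and by the 90 nuclear subunit genes, and the ratio of their sums, in each sample (points numbered by replicate, axes from 0), with the mean and SD of each genotype. The mitochondrial share lies between 9.84 and 11.03% in elmo2-/- and between 10.3 and 12.1% in elmo2+/+, and the genotypes overlap in each panel.

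Pools of the same genotype differed more in the median of the nuclear subunit genes than the genotypes did. These genes moved together: 83 of 89 were above their 12-sample mean in elmo2+/+ replicate 4 and 78 in elmo2+/+ replicate 3, but 7 in elmo2+/+ replicate 2 and 9 in elmo2-/- replicate 1. Their median deviation from the mean ranged from -0.20 (elmo2-/- replicate 1) to 0.23 (elmo2+/+ replicate 4) on the log2 scale. The SD of these medians was 0.12 in elmo2-/- and 0.15 in elmo2+/+, with genotype means of 0.027 and -0.022. For all genes tested the same median lay between -0.0024 and 0.012 in every sample, which follows from the TMM scaling. It is thus no independent background for the nuclear subunits. On log2(TPM + 1) 16457 of the 22259 genes were above their mean in elmo2-/- replicate 1 and 6174 in elmo2-/- replicate 3. Leaving out elmo2+/+ replicate 4 moved the count of genes above 0 from 77 to 96 of 115 and the median of the nuclear subunits from 0.031 to 0.080, and leaving out elmo2-/- replicate 1 moved that median to 0.081. Leaving out elmo2+/+ replicate 1 moved the count to 61 of 115 (53.0%, against 50.8% of all genes) and the median to 0.011.

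Some of these shifts depended on the scaling. On log2(TPM + 1) 32 of the 89 nuclear subunit genes were above their mean in elmo2-/- replicate 1 and 49 in elmo2+/+ replicate 1. After TMM scaling 9 and 12 were, and these were the samples with the highest TMM factors. In other pools the count after TMM scaling also differed from that on log2(TPM + 1). It was 32 against 62 in elmo2-/- replicate 2, 80 against 35 in replicate 3 and 73 against 45 in replicate 4. It was 65 against 41 in elmo2-/- replicate 6 and 7 against 27 in elmo2+/+ replicate 2, but 76 against 74 in elmo2-/- replicate 5. In elmo2+/+ replicates 3 and 4 the nuclear subunit genes were mostly above their mean on log2(TPM + 1) too, with 81 and 72 of 89. In elmo2+/+ replicates 5 and 6 they were mostly below, with 14 and 10 of 89 above. These counts may be read against all 22259 genes on log2(TPM + 1). Of these, 16457, 13651, 6174, 6269, 10152 and 7286 were above their mean in elmo2-/- replicates 1 to 6. In elmo2+/+ replicates 1 to 6 the counts over all genes were 16631, 15116, 11292, 7996, 11230 and 10716. The part of sample composition in these shifts was not tested.

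The median deviations of the mitochondrial and nuclear genes had the same sign in 5 of the 12 pools. The median deviation of the mitochondrial genes was highest in elmo2-/- replicate 6 (0.19) and elmo2+/+ replicate 5 (0.15) and lowest in elmo2-/- replicates 1 (-0.12) and 2 (-0.11). In elmo2+/+ replicate 5, 13 of 13 mitochondrial genes were above their mean while 76 of 89 nuclear subunit genes were below theirs, and in elmo2+/+ replicate 3 the counts were 1 of 13 above for mitochondrial and 78 of 89 above for nuclear genes. Both sets were mostly above their mean in elmo2+/+ replicate 4 (11 of 13 and 83 of 89) and elmo2-/- replicate 6 (10 of 13 and 65 of 89). Both were mostly below in elmo2-/- replicate 1 (3 of 13 and 9 of 89 above) and elmo2-/- replicate 2 (0 of 13 and 32 of 89 above). In elmo2+/+ replicate 6 the counts above were 6 of 13 and 16 of 89. These counts follow TMM scaling. On log2(TPM + 1) 4 of 13 mitochondrial genes were above their mean in elmo2+/+ replicate 4 and 9 of 13 in elmo2-/- replicate 1. Of all 22259 genes 7996 and 16457 were above their mean in these samples. In elmo2-/- replicate 2 the counts on log2(TPM + 1) were 3 of 13 and 62 of 89, with 13651 of all genes above. In elmo2-/- replicate 6 the counts were 9 of 13 and 41 of 89, and elmo2+/+ replicates 3 and 5 kept 1 and 13 of 13. Whether both sets shared a direction in a pool thus depended in part on the scaling. The difference between the medians of the mitochondrial and nuclear genes ranged from -0.19 to 0.24. Its mean was -0.050 ± 0.12 over the elmo2-/- samples and 0.050 ± 0.17 over the elmo2+/+ samples (SD, n = 6 each). The genotypes differed by less than either SD, but these SDs describe single pools and the difference was not tested.

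**Figure D5:**
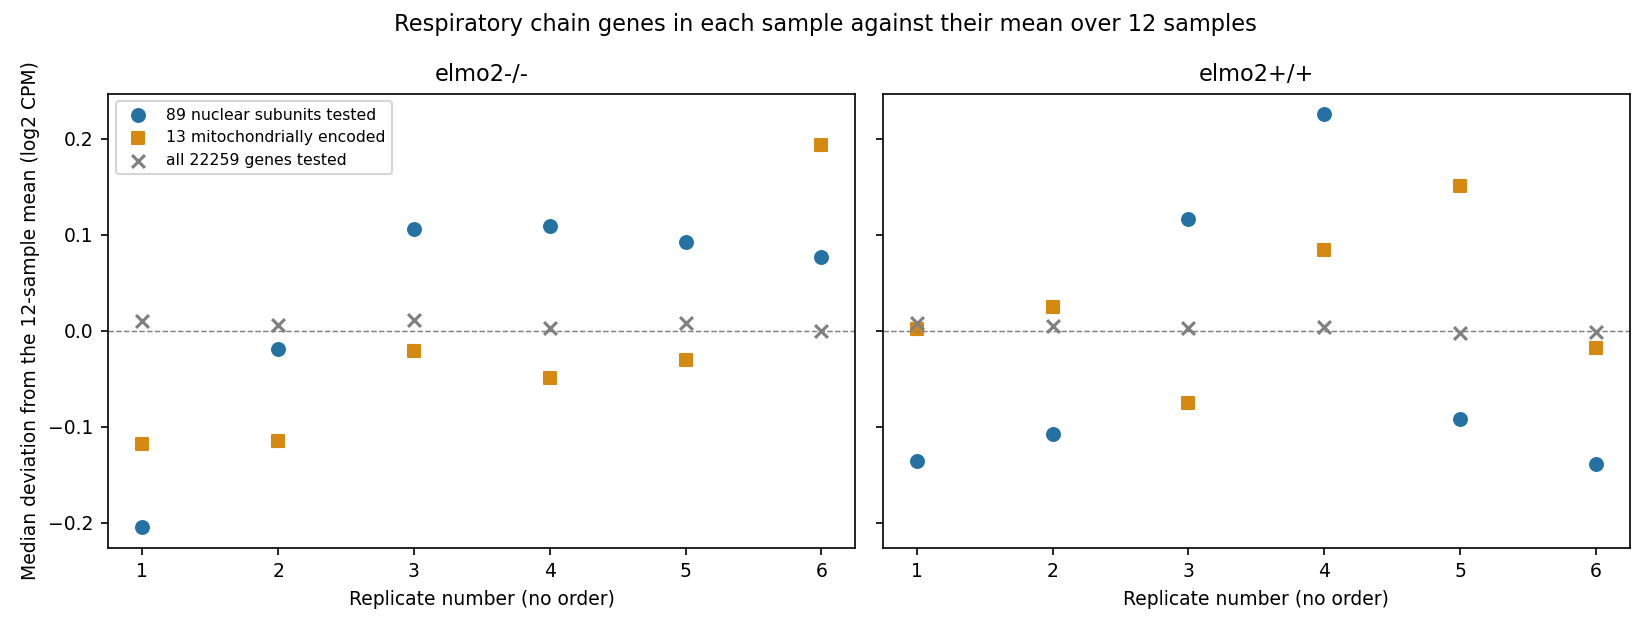
Median deviation of log2 CPM from the 12-sample mean in each sample, for the 89 nuclear subunit genes tested, the 13 mitochondrially encoded genes and all 22259 genes tested. Nuclear subunits range from -0.20 to 0.23 and mitochondrial genes from -0.12 to 0.19. TMM scaling holds the median of all genes at about the same level in every sample, here between -0.0024 and 0.012.

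Genes that act around the chain were also read as lists. Of the electron carriers and the complex III subunit outside the rule, 5 genes were tested and 0 had an unadjusted p under 0.05, with CYC1, cytochrome c1, at a log2 fold change of -0.046 and cycsb, a cytochrome c gene, at 0.11. Of 42 further assembly factors of complexes II to V and of complex I, 22 were above 0 and 20 below, with a median of 0.012. An unadjusted p under 0.05 was found for 1, coa3b, a complex IV assembly factor, at -1.14 (standard error 0.50, adjusted p 0.9997 from edgeR). The row coa3b had few reads, with 0.76 to 2.96 CPM in elmo2-/- and 0.73 to 6.49 CPM in elmo2+/+, with overlap. The more abundant row COA3, with means of 8.48 CPM in elmo2-/- and 7.81 CPM in elmo2+/+, was at 0.12. Of 25 genes that express mitochondrial DNA, 18 were below 0, with a median of -0.034, and 1 had an unadjusted p under 0.05, POLRMT, the mitochondrial RNA polymerase, at -0.23 (standard error 0.092, adjusted p 0.9997 from edgeR).

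Among 11 nuclear regulators of mitochondrial genes, 7 were below 0 and 0 had an unadjusted p under 0.05. The coactivator PPARGC1A was at -0.21 (standard error 0.10), ppargc1b at -0.12 (standard error 0.059) and the nuclear receptor ESRRA at -0.17 (standard error 0.094), whereas NRF1 was at 0.049 and GABPA at 0.048. Of 21 genes of the citric acid cycle and pyruvate dehydrogenase, 12 were above 0, with a median of 0.013, and 0 had an unadjusted p under 0.05. In each of these lists the count at an unadjusted p under 0.05 may be read against the 4.68% of all genes.

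Markers of the tissues expected in whole larvae were present, including muscle, heart, liver, intestine, neurons, photoreceptors and skin. The 4 muscle markers tested (ckma, ckmb, myhz2 and smyhc1) summed to 8300 to 10681 TPM in elmo2-/- and 9024 to 9831 TPM in elmo2+/+, with 2 above and 2 below 0. Heart markers summed to 65.0 to 118 TPM in elmo2-/- and to 57.6 to 122 in elmo2+/+. The lists with every tested gene above 0 were exocrine pancreas, with 4 of 4 and 686 to 4199 TPM in elmo2-/- against 972 to 2302 in elmo2+/+, and red blood cells, with 4 of 4 and 918 to 1673 against 817 to 1506 TPM. In each of these lists 1 gene had an unadjusted p under 0.05, the elastase gene ela2l at a log2 fold change of 1.25 (standard error 0.51) and alas2, the first enzyme of heme synthesis in red blood cells, at 0.59 (standard error 0.23), both with an adjusted p of 0.9997 from edgeR. Of all genes tested 4.68% passed the unadjusted threshold, and 4 genes are too few to compare with that share. Some listed markers had no row with their symbol: 2 of 5 for exocrine pancreas, 2 of 5 for red blood cells, 7 of 11 for muscle, 4 of 7 for neurons, 2 of 6 for heart and 2 of 6 for photoreceptors. Listed symbols with an added paralog ending, such as a or b, were also matched. The rows for heart (7), photoreceptors (7), exocrine pancreas (5), red blood cells (4), liver (7) and skin (5) can therefore include genes other than the listed markers. In every one of these lists the summed levels of the genotypes overlapped, and the part of tissue composition in the values of the respiratory chain genes was not tested.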

How the data were processed

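RNA of 12 pools of whole larvae was sequenced on the BGISEQ-500. The authors deposited estimated counts per Ensembl gene, which need not be whole numbers, and TPM values, which the authors scaled for transcript length to the same total in each sample. Per the submitters' processing notes, Trim Galore 0.6.4, kallisto 0.4.6 and GRCz11 were used. Symbols came from a table of identifiers, in which 29201 of 32520 rows had one. Rows that share a symbol are printed with their identifier.

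Estimated counts were rounded and compared with edgeR 4.0.16 in R 4.3.3 (filterByExpr with a minimum count of 10, TMM, quasi-likelihood test, genotype as the only term, Benjamini-Hochberg adjustment over 22259 genes). Standard errors were obtained as |log2 fold change| over the root of the F statistic, and intervals are 95% intervals. The biological coefficient of variation was 0.171. Log2 CPM used a prior count of 2.

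Alternatives were limma 3.58.1 on TPM with pseudocounts of 1 or 0.1, DESeq2 1.42.0, scaling by RLE factors, by library size only or without the mitochondrial genes, filters of 1 CPM in 6 samples or 1 count in any sample, a block for the replicate number, each sample left out, and elmo2-/- subsets by library number. The subset of library numbers 13 to 16 held elmo2-/- replicates 1 to 4, and that of library numbers 7 and 8 held only replicates 5 and 6. Each subset was compared with all elmo2+/+ samples. Scripts were tested on simulated data.

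The genes named were elmo2, all mitochondrial and sdh genes, in complexes I, III, IV and V the 2 most abundant and the 3 of smallest p, all genes with an unadjusted p under 0.05 or no overlap, the 3 NDUFAF genes of smallest p, the inhibitors, and paralogs as TPM levels. Other genes were named after their values were seen, and the value of 1 gene is not reported here. The genes and lists were chosen with earlier results of these data known, so counts and medians are descriptions without a test.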

Additional observations from a re-analysis of the deposited data

Results flagged for a closer look

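A total of 122 groups of 6 samples, over named genes, TPM shares, ratios and median deviations, were examined for a sample that stood apart from the other 5 of its genotype by Dixon's ratio, which chance gives in about 1 of 20 groups. This found 6, all in elmo2-/-, and several of them share the same genes. In replicate 6, MT-ND1 had 2900 CPM where the other 5 lay between 2320 and 2530, MT-CYB had 5665 CPM where the others lay between 4435 and 4736, the mitochondrial genes of complex IV took 5.24% of TPM where the others took 4.17 to 4.53%, and the median deviation of the mitochondrial genes was 0.193 where the others lay between -0.118 and -0.0212. In replicate 1, MT-ND5 had 2201 CPM where the others lay between 1746 and 1868, and the ratio of mitochondrial to nuclear TPM in complex V was 3.97 where the others lay between 3.02 and 3.35. That ratio depended on the length scaling of mt-atp8, which has few reads per TPM.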

How the results depend on the processing

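Respiratory chain genes with an adjusted p under 0.05 numbered 0 under every alternative run. Over all genes the number called was 0 with edgeR, 3 with DESeq2 and 1 with limma on log2(TPM + 1) or log2(TPM + 0.1), and elmo2 then passed the threshold, with log2 fold changes of -0.93, -1.17 and -1.19 and adjusted p of 0.000123, 0.0327 and 0.0335. The number of respiratory chain genes at an unadjusted p under 0.05, 2 in the comparison reported, was 4 on library size only (4.17% of all genes passed), 5 with limma on log2(TPM + 1), log2(TPM + 0.1) or log2(TPM + 1) without a filter (4.50, 4.48 and 4.72% of all genes), 1 with elmo2-/- library numbers 13 to 16 only (3.05%) and 9 with library numbers 7 and 8 only (6.53%). With 1 sample left out it ranged from 2 to 17. It was 17 without elmo2-/- replicate 1, where 7.25% of all genes passed, and 4, 7, 5 and 4 without elmo2+/+ replicates 1, 3, 4 and 6, where 4.63, 4.44, 5.20 and 3.86% of all genes passed. The cause was not tested. NDUFAF1 kept an unadjusted p under 0.05 in 9 of 12 other settings and NDUFS4 in 11 of 12, and both in 12 of 12 with 1 sample left out, with adjusted p of at least 0.502. The median of all genes moved at most from -0.00061 to -0.042, with limma on log2(TPM + 0.1).

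The replicate numbers do not pair the samples by the labels. Deviations of same-numbered samples correlated between -0.25 and 0.62 (mean 0.16), and 4 of 12 samples correlated best with their own number. When the replicate number was added as a block, 0 genes were called and 7 respiratory chain genes (6.09%) had an unadjusted p under 0.05, where 6.49% of all genes did. Under the block cox6c was at 0.0063 and ATP5F1B at 0.0024.

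For 43 named genes under 12 settings, 484 of 516 log2 fold changes kept direction and side of the threshold and 29, in 14 genes, had the opposite sign, all of genes within 0.070 of 0 in the comparison reported. On library size only these were MT-ND6 (-0.0010), MT-CYB (-0.011), SDHB (-0.0096) and SDHC (-0.0049). With limma on log2(TPM + 1), with or without a filter, they were MT-CYB (-0.0336), SDHB (-0.0313) and SDHC (-0.0190), and on log2(TPM + 0.1) MT-CYB (-0.0336), SDHB (-0.0317) and SDHC (-0.0191). With library numbers 13 to 16 only they were MT-ND3 (-0.045), MT-ND6 (-0.076), MT-CYB (-0.049), SDHB (-0.034), SDHC (-5.9e-05) and ATP5F1B (0.019). With library numbers 7 and 8 only they were MT-ND4 (0.070), MT-CO1 (0.055), MT-CO2 (0.15), MT-CO3 (0.098), MT-ATP6 (0.0030), SDHD (ENSDARG00000030139, 0.018), UQCRQ (0.013) and cox6c (0.064). With 1 sample left out, the range included both signs for MT-CO2 (-0.081 to 0.039), MT-CO3 (-0.099 to 0.012), MT-ND3 (-0.016 to 0.086), MT-ND4 (-0.072 to 0.0038), MT-ND6 (-0.050 to 0.12), MT-CYB (-0.046 to 0.036), MT-ATP6 (-0.067 to 0.013), SDHA (-0.12 to 0.011), SDHB (-0.023 to 0.070), SDHC (-0.034 to 0.071), SDHD (ENSDARG00000030139, -0.071 to 0.043), UQCRQ (-0.077 to 0.056), cox6c (-0.074 to 0.061), cox6a1 (ENSDARG00000022438, -0.12 to 0.017), atp5mc3b (-0.090 to 0.014) and ATP5F1B (-0.046 to 0.067). Depth limits weak rows such as SDHD (ENSDARG00000055712), with 14 to 41 estimated counts per sample.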
